A study of Rattus norvegicus with 18 samples.

Results

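The miRNA composition of the normotensive rat heart was described in the 6 libraries titled WKY1 to WKY6, out of 18 heart libraries in the series. They were chosen by title alone, and no other group enters any value. WKY is the Wistar Kyoto rat, an inbred strain with normal blood pressure that serves as the usual reference for the spontaneously hypertensive rat (SHR). The labels give these 6 as the normal group and the tissue as heart. Each group had 6 animals according to the design text, in which NS or QDG, abbreviations left unexplained, was given to SHR. Whether the WKY rats received anything, and their age and sex, are not stated in the sources used here. No label ties every library to a rat of its own, so the spread between libraries may be partly technical. RNA came from heart tissue and no sorting of cells is named, so each value averages over all cell types present.

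A miRNA is made from a hairpin precursor whose stem is cut into a short duplex. The strand from the 5′ side of the hairpin is called 5p and the strand from the 3′ side 3p, and usually one of them, the guide, is kept in an Argonaute protein while its partner is degraded. The guide finds messenger RNAs mainly through its seed, bases 2 to 8, so miRNAs with the same seed form a family with largely shared targets. Argonaute holds the first base of the guide in a pocket that favours U or A. In the heart, miR-1 and miR-133a are made from shared precursors in muscle cells, miR-208a, miR-208b and miR-499 lie within introns of myosin heavy chain genes, miR-126a comes from endothelium, and miR-143 with miR-145 from smooth muscle.

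The sequences that carry most of the reads are shown first, since the order of families and the choice of arm both refer to them. Mature sequences came from RefSeq (GRCr8) and were found by name for 542 of the 599 listed miRNAs, which held 91.9% of reads. miR-99a-5p and miR-30d-5p, both among the 20 most abundant, had no entry. Capitals mark the seed, and lines are grouped by shared seed.
miR-1b: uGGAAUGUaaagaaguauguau
miR-1-3p: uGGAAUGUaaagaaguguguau
miR-206-3p: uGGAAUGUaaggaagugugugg
miR-126a-3p: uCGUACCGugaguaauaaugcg
miR-26a-5p: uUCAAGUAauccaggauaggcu
miR-26b-5p: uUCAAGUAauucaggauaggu
miR-143-3p: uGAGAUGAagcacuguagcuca
miR-133a-3p: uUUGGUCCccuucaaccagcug
miR-133b-3p: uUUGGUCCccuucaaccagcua
miR-30a-5p: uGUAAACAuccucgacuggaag
miR-30c-5p: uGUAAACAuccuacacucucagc
miR-30e-5p: uGUAAACAuccuugacuggaag
let-7g-5p: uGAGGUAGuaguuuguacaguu
let-7f-5p: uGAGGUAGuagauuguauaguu
let-7i-5p: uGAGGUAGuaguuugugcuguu
miR-27b-3p: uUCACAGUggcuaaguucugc
miR-27a-3p: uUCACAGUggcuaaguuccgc
miR-499-5p: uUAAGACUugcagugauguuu
miR-378a-3p: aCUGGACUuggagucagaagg
miR-22-3p: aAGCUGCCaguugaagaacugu
miR-148a-3p: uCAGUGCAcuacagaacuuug
miR-21-5p: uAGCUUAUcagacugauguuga

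Several of these differ at 1 base outside the seed. Counted from the 5′ end, with the first-named miRNA's base first, miR-1-3p and miR-1b differ by G17A, miR-133a-3p and miR-133b-3p by G22A, miR-30a-5p and miR-30e-5p by C13U, and miR-27a-3p and miR-27b-3p by C19U. Among miRNAs with a sequence and at least 1 read, 23 pairs of entries of similar length had at most 1 mismatch when aligned from their first base. Pairs whose starts are shifted, such as miR-10a-5p and miR-10b-5p, are not counted. The 40 entries in these pairs held 50.8% of reads. let-7a-1-3p and let-7c-2-3p have an identical sequence and were listed at nearly the same level, with 19824 and 19826 reads over all libraries. Whether reads that match both were counted for each or divided between them was not tested. How reads that match several entries were counted was not stated in the sources at hand. The split within any of these pairs is therefore uncertain, and so are the sums and shares if such reads were counted for more than 1 entry.

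The deposited values are reads scaled to a library-specific number of reads and given per 1000000, here RPM, with no term for length. Read back from these values, the libraries held 6465025 to 9463554 reads over miRNAs (mean 7653999 ± 1151748, SD, n = 6), and 498 to 515 miRNAs had at least 1 read in a library. Of 599 listed miRNAs, 576 had a read in at least 1 library and 440 in all 6. The other 23 had 0 reads in all 6 libraries, which allows a pooled level of up to 0.0653 per 1000000 reads over miRNAs. This limit is not on the RPM scale, whose library-specific number of reads is smaller than the reads over miRNAs. Because the values summed to 1.40 to 1.51 times 1000000, shares were taken of the sum of all listed miRNAs. WKY1 was the deepest library and the one that stood apart most often, and values without it are given beside the results it moved most.

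miR-1b, which carries the seed of the muscle miRNA miR-1, led every library. Its share of reads was 25.2% at the lowest, 26.7% at the median and 33.1% at the highest, with a mean of 27.5 ± 2.86% (SD, n = 6). WKY1 held the highest share, and the other libraries lay between 25.2 and 27.3%; without WKY1 the mean was 26.4%. miR-126a-3p, the endothelial miRNA that limits inhibitors of growth factor signalling, came next with 5.91% at the lowest, 7.78% at the median and 8.80% at the highest (mean 7.62 ± 1.01%). WKY1 was its lowest library and WKY3 its highest, and without WKY1 the mean was 7.97%. miR-1b exceeded miR-126a-3p by 19.8 ± 3.71 percentage points and did so in 6 of 6 libraries.

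Behind this pair, 5 miRNAs lay close together. miR-26a-5p held 4.80, 5.04 and 5.29% of reads at the lowest, median and highest library (mean 5.05 ± 0.156%). miR-1-3p held 4.44, 4.83 and 5.93% (mean 4.90 ± 0.548%), again highest in WKY1. miR-99a-5p held 4.27, 4.58 and 5.12% (mean 4.65 ± 0.370%). These shares overlapped, and only 5 of 6 libraries had miR-26a-5p above miR-1-3p and only 4 of 6 had miR-1-3p above miR-99a-5p. miR-143-3p, the smooth muscle miRNA, had 3.23, 4.25 and 4.79% (mean 4.14 ± 0.645%). miR-133a-3p, which restrains growth of heart muscle cells in textbook accounts, had 2.15, 3.52 and 4.06% (mean 3.38 ± 0.665%). Its lowest value was in WKY1, where it ranked 12th, against 6th at its best.

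The remaining members of the 20 most abundant were general or muscle miRNAs at 1.20 to 3.19% of reads. The miR-30 family gave 4 of the 20: miR-30a-5p at 3.19 ± 0.137%, miR-30c-5p at 2.73 ± 0.171%, miR-30d-5p at 2.38 ± 0.0786% and miR-30e-5p at 1.92 ± 0.195% (SD, n = 6 for each). The let-7 family, known for promoting differentiation, gave let-7g-5p at 2.48 ± 0.173%, let-7f-5p at 2.23 ± 0.130% and let-7i-5p at 2.03 ± 0.240%. miR-27b-3p held 2.12 ± 0.159%, with 2.44% in WKY3 and a median of 2.08%. miR-499-5p, from an intron of the slow myosin gene Myh7b, held 1.80 ± 0.172%. miR-378a-3p, from the gene for the metabolic coactivator PGC-1β, held 1.64 ± 0.208%. miR-22-3p held 1.39 ± 0.203%, with its lowest value, 1.03%, in WKY1. miR-148a-3p and miR-21-5p, a miRNA of fibroblasts and stressed heart, closed the list at 1.33 ± 0.0988% and 1.20 ± 0.0666%.

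The order among neighbours was often within the spread. Of 20 neighbouring pairs, counting the step from miR-21-5p to miR-29a-3p, 5 held in 6 of 6 libraries: miR-1b over miR-126a-3p, miR-126a-3p over miR-26a-5p, miR-30a-5p over miR-30c-5p, miR-378a-3p over miR-22-3p and miR-21-5p over miR-29a-3p. The other pairs held in 3 to 5 libraries. miR-27b-3p lay above let-7i-5p in 3 of 6. The plot of shares by miRNA shows these overlaps and the place of WKY1.

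**Figure D1:**
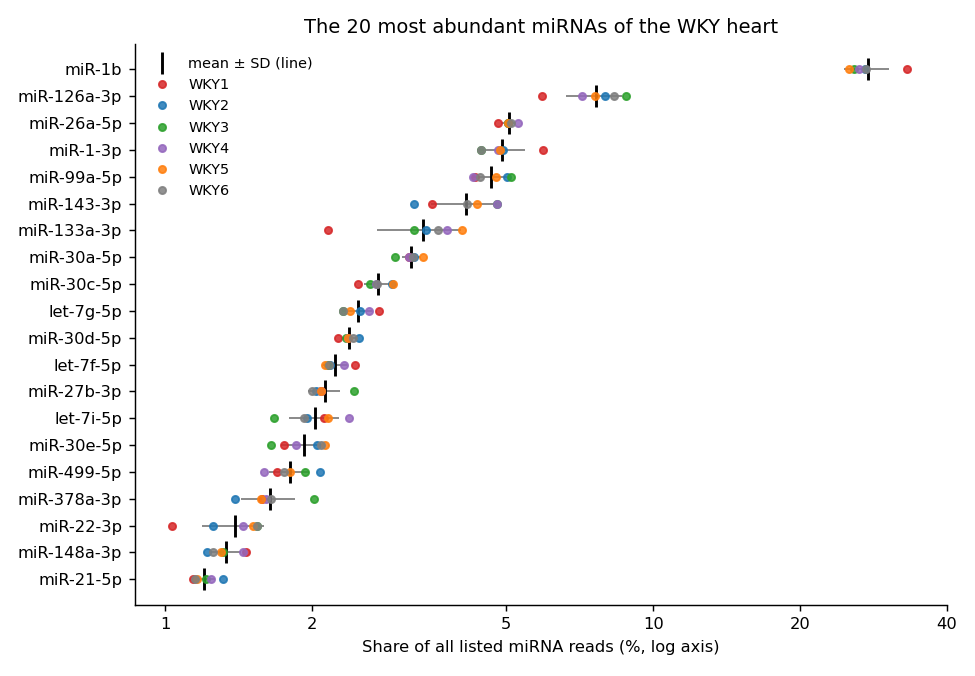
Share of all listed miRNA reads (percent, log axis) for the 20 most abundant miRNAs in each of the 6 WKY libraries, with the mean as a tick and ± SD as a line. miR-1b lies apart at 25.2 to 33.1%, miR-126a-3p at 5.91 to 8.80%, and most neighbours below them overlap.

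Few miRNAs held most reads. The 3 most abundant in a library held 40.3 ± 2.47% of its reads, the top 10 65.7 ± 1.39%, the top 20 83.6 ± 1.03% and the top 50 95.9 ± 0.281% (SD, n = 6). It took 5 to 6 miRNAs to reach 50% of reads, 26 to 30 to reach 90% and 92 to 103 to reach 99%. An effective number of miRNAs, the exponential of the Shannon entropy, averaged 25.2 ± 2.08 and lay at 21.2 in WKY1 and at up to 27.2 in the others. At the other end, 26 miRNAs had a mean of at least 10000 RPM and held 88.7% of reads, 67 had at least 1000 RPM, 149 at least 100 RPM and 247 at least 10 RPM. The rest, under 10 RPM, held 0.0422% of reads. The median listed miRNA had 4.33 RPM.

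Grouped by seed, the 542 miRNAs with a sequence had 452 different seeds. The 58 seeds shared by more than 1 entry covered 148 entries and 69.3% of reads. The 10 largest seed families held 76.4 ± 1.36% of reads. The muscle family with seed GGAAUGU, made of miR-1b, miR-1-3p and miR-206-3p, held 30.1% at the lowest, 31.5% at the median and 39.1% at the highest, in WKY1 (mean 32.4 ± 3.36%, and 31.1% without WKY1). miR-1b made up 84.7 ± 0.734% of it. miR-206-3p, typical of skeletal muscle, was present at 547, 658 and 994 RPM, lowest in WKY2 and highest in WKY1, and miR-1b exceeded it 580 ± 76.9-fold. The ratio of miR-1b to miR-1-3p was 5.62 ± 0.327, between 5.18 and 6.15, so these near-identical entries kept a nearly constant ratio over libraries, WKY1 included at 5.58. How reads that match both were counted was not stated, so their levels may not be independent.

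The let-7 family, with 9 entries of seed GAGGUAG, held 7.88, 8.39 and 9.22% at the lowest, median and highest library (mean 8.51 ± 0.509%). No member dominated it: let-7g-5p made up 29.1 ± 1.02% of the family. The miR-30 family depended on which entries were joined. The 4 with a sequence, miR-30a-5p, miR-30c-5p, miR-30e-5p and miR-384-5p, held 7.83 ± 0.466%, and with miR-30b-5p and miR-30d-5p joined by name 10.4 ± 0.533%, which is larger than let-7. miR-384-5p contributed only 4.39 RPM. By this second count miR-30 was the second family of the WKY heart, after miR-1, and miR-99a-5p with miR-100-5p and miR-99b-5p was the sixth at 5.43 ± 0.417%.

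Of the remaining large families, 3 rested on 1 entry each with no partner of the same seed: miR-126a-3p, miR-143-3p and miR-499-5p. The miR-26 family held 5.59 ± 0.177%, and miR-26a-5p made up 90.4 ± 0.322% of it. The miR-133 family held 2.41, 3.95 and 4.62% (mean 3.80 ± 0.770%), with WKY1 lowest and a mean of 4.08% without it. miR-133a-3p exceeded miR-133b-3p by 7.98 ± 0.646-fold. The miR-27 family held 3.03 ± 0.281%, of which miR-27b-3p made up 70.1 ± 2.73%. The miR-148 family, with miR-148a-3p, miR-148b-3p and miR-152-3p, held 1.66 ± 0.126%. By name, the miR-99 family, which had no sequence for its lead, held 4.81 ± 0.377%. The plot of seed families shows the shares by library.

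**Figure D2:**
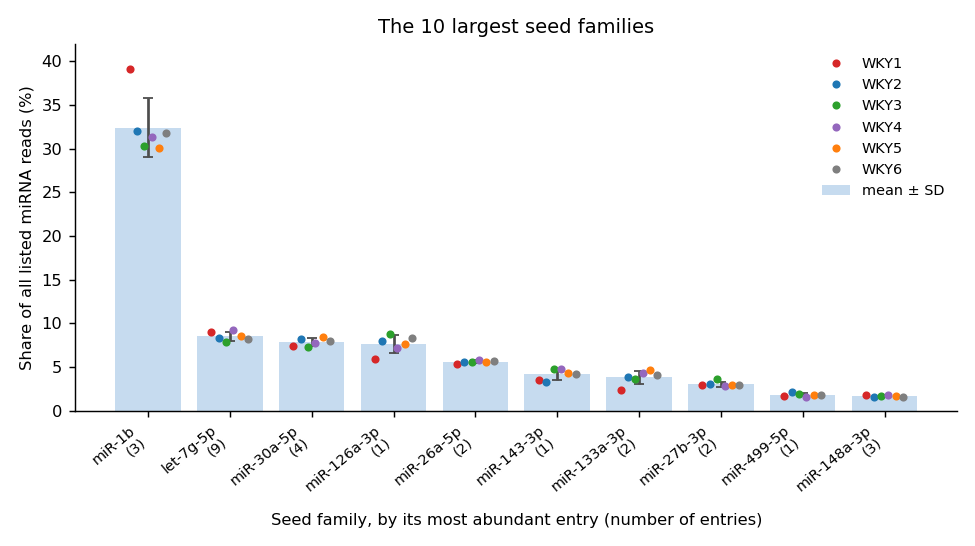
Share of all listed miRNA reads (percent) of the 10 largest seed families, named by their most abundant entry with the number of entries in brackets. Bars give the mean, whiskers ± SD and points the 6 WKY libraries; the miR-1b family reaches 39.1% in WKY1 and the other families stay under 10%.

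Among entries with a sequence, a first base of U carried most reads. Of the 542 miRNAs with a sequence, 209 start with U, which is 38.6% of entries, and these held 90.2 ± 0.667% of the reads of all entries with a sequence (SD, n = 6; lowest 89.6%, highest 91.5%). Entries that start with A held 7.07 ± 0.526%, those with C 2.15 ± 0.137% and those with G 0.535 ± 0.0730%. Of the sequences printed above, all but miR-378a-3p and miR-22-3p start with U. Sequences of 22 bases held 82.5 ± 0.737% of the same reads, those of 21 bases 11.2 ± 0.665% and those of 23 bases 5.32 ± 0.383%. The 57 entries without a sequence, among them miR-99a-5p at 4.65% of all reads, enter none of these shares.

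Both arms were listed for 216 hairpins, and 140 of them had a summed level of at least 10 RPM. The 5p and 3p arms of these 140 were compared within each library, as log2 of (5p RPM + 1) over (3p RPM + 1), with limma. The 5p arm was higher in 78 (55.7% of those tested), the 3p arm in 59 (42.1%), and 137 (97.9%) were called either way at a Benjamini-Hochberg adjusted p under 0.05. As nearly all hairpins were called, the size of the difference says more than the call. The median absolute difference was 4.97 on the log2 scale. It was at least 32-fold in 70 hairpins, 38 towards 5p and 32 towards 3p, and under 2-fold in 18. The added 1 RPM holds down the ratio of hairpins with a low level, so the median and the count of 70 are low estimates. miR-488, for example, had 2 reads from the 5p arm against 592 from the 3p arm, but a log2 of -4.21, and was not among the 70. The lower arm's median share was 1.71% of the hairpin's reads. The choice was also steady between libraries: 77 hairpins had more 5p and 58 more 3p in 6 of 6 libraries, and the median SD of the log2 ratio was 0.25.

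By the fitted ratio, the hairpin leaning most to 3p was miR-1. Over 6 libraries it had 6 reads from the 5p arm and 2271046 from the 3p arm, and the log2 ratio on the scale with 1 RPM added was -15.86 ± 0.12 (SE, limma adjusted p = 1.79e-42). On this scale miR-23a followed with 20 reads against 97376 (log2 -10.90 ± 0.10), and miR-101a had 73 against 123705 (log2 -10.25 ± 0.18). miR-101b had 1 read from the 5p arm against 45955, a share of 0.00218% with a 95% exact Clopper-Pearson interval of 5.51e-05 to 0.0121%, which covers counting error only. miR-27b had 799 against 976422 (log2 -10.20 ± 0.10). These 5p arms were rare in every library; that of miR-27b, the most abundant of them, reached 31.7 RPM at the highest. miR-1b has no arm in its name, and by its place in the RefSeq hairpin it is a 3p arm too.

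The hairpin leaning most to 5p was miR-26a, with 2312056 reads from the 5p arm and 10 from the 3p arm (log2 15.77 ± 0.12, SE, limma adjusted p = 1.79e-42). let-7g had 1143288 against 51 (log2 13.74 ± 0.11). miR-21 had 551516 against 22 (log2 13.33 ± 0.12). miR-99a had 2137677 against 665 (log2 11.57 ± 0.12). miR-186 had 78242 reads from the 5p arm and 1 from the 3p arm, a share of 0.00128% for the 3p arm (95% exact Clopper-Pearson interval 3.24e-05 to 0.00712%). With so few reads on the lower arm, the fitted log2 values of these hairpins depend on the added 1 RPM, and so does their order. miR-598 and miR-365 had 0 reads from the 5p arm, against 2271 and 1148 from the 3p arm, but log2 values of only -6.18 and -5.20. By the lower arm's share of reads, miR-101b (0.00218%) leaned more to 3p than miR-23a (0.0205%). That share was also lower for miR-186 (0.00128%) than for miR-21 (0.00399%) and let-7g (0.00446%). It rests on 1 read for miR-186, whose interval includes the other shares, so the order among them is not resolved.

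Hairpins whose arms were near equal included miR-301a, miR-423, miR-362, miR-28 and miR-434, and these were also the 5 in which the higher arm changed between libraries. miR-423, a widely expressed miRNA, had 204, 242 and 321 RPM from the 5p arm and 143, 272 and 410 RPM from the 3p arm at the lowest, median and highest library. The 5p share lay at 58.8% in WKY1 and between 43.1% and the 50% line in the other libraries (log2 -0.07 ± 0.11, limma adjusted p = 0.504); without WKY1 it was -0.19 with an adjusted p of 0.0470. miR-28 had a 5p share of 39.5, 45.1 and 51.4% (log2 -0.25 ± 0.10, limma adjusted p = 0.0243), and its call was lost without WKY4 (-0.17, adjusted p = 0.137) or WKY5 (-0.22, adjusted p = 0.0738). miR-301a (0.05 ± 0.13, limma adjusted p = 0.683) and miR-362 (-0.14 ± 0.14, limma adjusted p = 0.339) were not called. miR-434 was called at 0.27 ± 0.11 (limma adjusted p = 0.0253) and lost the call without WKY2, WKY3 or WKY6 (adjusted p 0.0641 to 0.106).

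Between these extremes, some hairpins gave substantial levels of both arms. miR-145, of smooth muscle, had 2457 ± 677 RPM from the 5p arm and 1644 ± 208 RPM from the 3p arm (log2 0.54 ± 0.11, SE, limma adjusted p = 3.26e-05), with 5p higher in 6 of 6 libraries. miR-199a, a miRNA of fibroblasts, had 10795 ± 943 RPM from the 3p arm and 2171 ± 315 RPM from the 5p arm (log2 -2.32). miR-142, of leukocytes, had 317 ± 19.7 RPM from 5p and 222 ± 52.7 RPM from 3p. By contrast, miR-143, the neighbour of miR-145, had 0.586% of its pooled reads in the 5p arm, miR-126a had 2.98%, miR-133a 4.62% and miR-208a 0.998%. The plot of 5p against 3p levels shows all 140 hairpins.

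**Figure D3:**
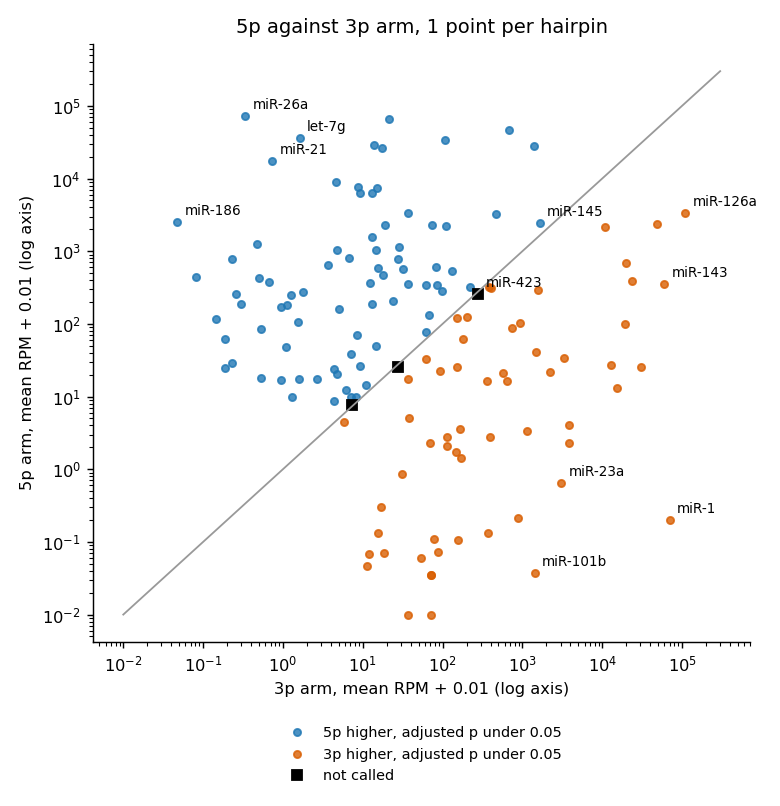
Mean level of the 5p arm against that of the 3p arm (RPM + 0.01, log axes), 1 point per hairpin with both arms listed and a summed level of at least 10 RPM, coloured by the limma call. The grey line marks equal levels; 78 hairpins lie above it as 5p higher, 59 below it as 3p higher, and 3 were not called.

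Over all reads with an arm in the name, 5p arms held 53.5 ± 1.52% (SD, n = 6; lowest 51.1%, highest 55.4%). This share turned on how miR-1b was treated. With the entries that carry no arm placed by their position in the RefSeq hairpin, miR-1b counted as 3p and the 5p share was 38.7 ± 1.18%. Without miR-126a-3p, the most abundant entry with an arm in its name, it was 59.8%. More hairpins thus leaned to 5p, while the reads leaned to 3p once miR-1b was included.

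The first base differed between the higher and the lower arm. Among 117 tested hairpins with both arms in RefSeq, the higher arm began with U in 62 (53.0%) and the lower arm in 24 (20.5%). G came first in 5 higher and 19 lower arms, C in 21 and 38, and A in 29 and 36. Exactly 1 arm began with U in 60 hairpins, and that arm was the higher one in 49 of them. The 11 exceptions included miR-361, miR-106b, miR-142, miR-132 and miR-434. In miR-361 the 3p arm, which begins with C, had 733 ± 66.1 RPM against 87.3 ± 12.4 RPM for the 5p arm (SD, n = 6). The median GC content was 45.5% for higher arms and 45.8% for lower arms. Within hairpins, GC content was lower in the higher arm in 68 and higher in 39. As all arms of this count come from the same 6 libraries and many hairpins are related by sequence, it is given as a description with no test.

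Neighbouring hairpins can be cut from the same transcript, so their levels show how unequal miRNAs from close loci were. In GRCr8, 164 listed hairpins fell into 47 groups with gaps of at most 10000 bases on the same strand, and 32 groups held only hairpins with 1 locus. Levels here are summed over both arms. miR-1 exceeded its neighbour miR-133a by 1.47 ± 0.566-fold, or 1.24 ± 0.0967-fold without WKY1, and the pair held 8.44 ± 0.448% of reads (SD, n = 6). miR-1 here leaves out miR-1b, which differs from miR-1-3p by 1 base and was far more abundant. These values thus rest on the uncertain split between the near-identical entries. miR-143 exceeded miR-145 by 14.9 ± 2.69-fold. miR-199a exceeded miR-214 by 184 ± 29.3-fold, miR-191a exceeded miR-425 by 37.4 ± 4.22-fold and miR-16 exceeded miR-15b by 22.5 ± 1.78-fold.

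In the group of miR-25, miR-93 and miR-106b, a relative of the miR-17-92 oncogenic cluster, the highest exceeded the lowest by 4.27 ± 0.395-fold. For miR-125a, miR-99b and let-7e it was 7.84 ± 0.821-fold. For miR-133b and miR-206, a pair of skeletal muscle, it was 9.42 ± 3.35-fold, or 10.6 ± 2.06-fold without WKY1. For the 6 hairpins from miR-450a to miR-503 it was 11.7 ± 2.12-fold. For miR-451 and miR-144, a red cell pair, it was 1.76 ± 0.298-fold. The order of levels within a group was the same in 6 of 6 libraries for those named here, except for the group of miR-25, where it held in 4, and that of miR-450a, where it held in 5. miR-133b, let-7e, miR-450a and miR-450b each have an entry near-identical to another listed one, so the folds of their groups carry the same uncertain split.

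The label was checked against miRNAs known to mark cell types. The heart and striated muscle list, with 14 listed entries, all detected, summed to 512167, 549869 and 630051 RPM at the lowest, median and highest library, which is 38.7 ± 2.56% of reads. WKY1 was the highest. Besides miR-1b, miR-1-3p and miR-133a-3p it held miR-499-5p at 25965 ± 2323 RPM, miR-133b-3p at 6193 ± 1705 RPM, and miR-486, which is also abundant in red blood cells, at 4388 ± 643 RPM. miR-208a-3p, from the alpha-myosin heavy chain gene of the adult rodent heart, had 1395, 2241 and 2715 RPM (mean 2201 ± 474 RPM). miR-208b-3p, from the beta-myosin gene, had 112, 146 and 220 RPM (mean 157 ± 41.2 RPM). Their ratio was 10.8 to 10.9 in WKY1, WKY2 and WKY3 and 17.0 to 19.5 in WKY4, WKY5 and WKY6. In whole tissue, fewer cells of a type and less RNA per cell cannot be told apart, and this holds for every list.

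The endothelial list had 6 of 6 entries detected and summed to 113424 ± 13622 RPM (7.89 ± 1.03% of reads), nearly all of it miR-126a-3p. The smooth muscle list (4 of 4 detected) summed to 64073 ± 10140 RPM, 4.45 ± 0.673% of reads. The fibroblast list (6 of 6) summed to 30337 ± 1851 RPM, led by miR-21-5p at 17299 ± 980 RPM and miR-199a-3p. Leukocyte and platelet miRNAs (14 of 14) summed to 8466 ± 1313 RPM, led by miR-146a-5p, a brake on innate immune signalling, at 6301 ± 1086 RPM. Most of this sum was thus miR-146a-5p, and the median entry of the list had 33.6 RPM. The red cell list (4 of 4) summed to 664 ± 211 RPM, from 341 RPM in WKY1 to 960 RPM in WKY5.

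Lists of other tissues summed to less than those above, except that the neuronal list exceeded the red cell list in each library. Neuronal miRNAs (18 of 20 detected, with miR-218a-1-3p and miR-218a-2-3p at 0) summed to 1576 ± 119 RPM, and most of this was miR-128-3p at 742 ± 49.8 RPM and miR-9a-5p at 465 ± 83.2 RPM. The epithelial list (9 of 9) summed to 70.0 ± 7.67 RPM. The pancreatic list (6 of 6) summed to 10.6 ± 1.77 RPM. The liver list, miR-122, summed to 0.610, 4.41 and 18.2 RPM, with the highest value in WKY4. Of 5 listed members of the embryonic cluster only miR-293-5p had any read, and miR-291a-3p, miR-292-3p, miR-292-5p and miR-295-3p had none. The plot of lists shows that the muscle list lay above every other list in each library.

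**Figure D4:**
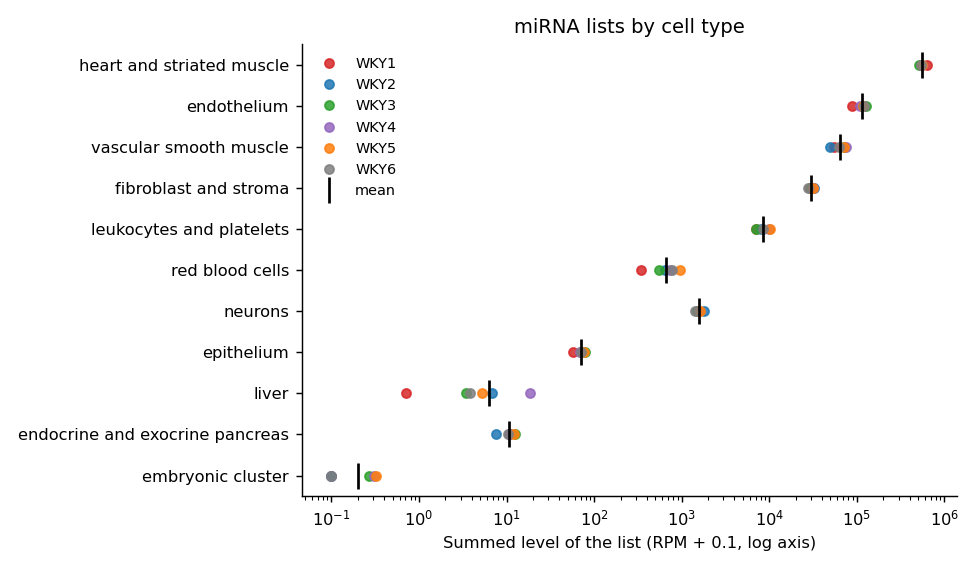
Summed level of each miRNA list by cell type (RPM + 0.1, log axis) in the 6 WKY libraries, with the mean as a tick. The muscle list lies between 512167 and 630051 RPM, the endothelial list averages 113424 RPM, and the liver list spreads from 0.610 to 18.2 RPM.

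In each range of level the median spread between libraries lay above what counting reads gives. As a multiple of the counting value it was larger for abundant than for scarce miRNAs, while the spread itself fell with level. Over miRNAs of at least 10 RPM the median coefficient of variation (CV, SD over mean) was 14.8%, and 11.8% without WKY1. It was 28.1% for the 144 miRNAs of 1 to 10 RPM, where counting alone gives 24.5%. At 10 to 100 RPM it was 17.7% against 8.60% from counting, and 59 of 98 miRNAs were over 2 times the counting value. It was 14.5% against 2.47% at 100 to 1000 RPM, 12.6% against 0.913% at 1000 to 10000 RPM and 9.68% for the 26 miRNAs above that, where counting gives 0.254% and the spread was over 2 times that in 26 of 26. Of the 149 miRNAs with at least 100 RPM, 41 had a CV under 10% and 6 had one over 30%. Spearman's rho over these 149 miRNAs was 0.983 to 0.995 in the 15 pairs of libraries, a value that a wide range of levels keeps near 1 whatever single miRNAs do: miR-10a-5p ranked between 41 and 68, and miR-10b-5p between 95 and 142.

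miR-10a-5p, encoded within the Hox gene clusters, varied most, with a CV of 48.8%. It had 2992, 3331 and 3374 RPM in WKY1, WKY4 and WKY5, 2175 RPM in WKY2, and only 901 RPM in WKY3 and 1021 RPM in WKY6. Its relative miR-10b-5p had 338, 297, 326 and 242 RPM in WKY1, WKY2, WKY4 and WKY5, and 111 and 162 RPM in WKY3 and WKY6 (CV 37.5%). The same libraries, WKY3 and WKY6, were thus lowest for both. Apart from a shift of their starts, the sequences of miR-10a-5p and miR-10b-5p are nearly identical. How reads that match both were counted was not stated, so their levels may not be independent. miR-224-5p followed with 85.6, 169 and 288 RPM at the lowest, median and highest library (CV 41.3%), lowest in WKY6 and highest in WKY4.

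The red cell miRNAs miR-451-5p and miR-144-3p also varied. miR-451-5p had 230, 438 and 618 RPM (CV 33.7%), and miR-144-3p 80.8, 188 and 249 RPM (CV 30.6%). Both were lowest in WKY1 and highest in WKY5. Without WKY1 the CV of miR-144-3p was 14.3% and that of miR-451-5p 25.9%. miR-423-3p had 143, 272 and 410 RPM (CV 32.4%, and 22.0% without WKY1). miR-143-5p and miR-145-5p had CVs of 28.1% and 27.6%, and that of miR-143-5p was 16.2% without WKY5.

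The steadiest abundant miRNAs were let-7a-5p with a CV of 3.40%, miR-30d-5p with 3.70%, miR-103-3p with 3.95%, miR-26a-5p with 4.24% and miR-99b-3p with 5.23%. miR-26a-5p had 69290 RPM at the lowest and 77151 RPM at the highest library. These values hold on the authors' scale. With TMM scaling, which equalises the bulk of miRNAs, the CVs were 7.80, 5.62, 5.89, 5.07 and 8.49%, while that of miR-10a-5p was 47.8%. miR-30c-5p, with 7.82% on the authors' scale, then had 4.34%, so which miRNAs were steadiest changed with the scale.

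**Figure D5:**
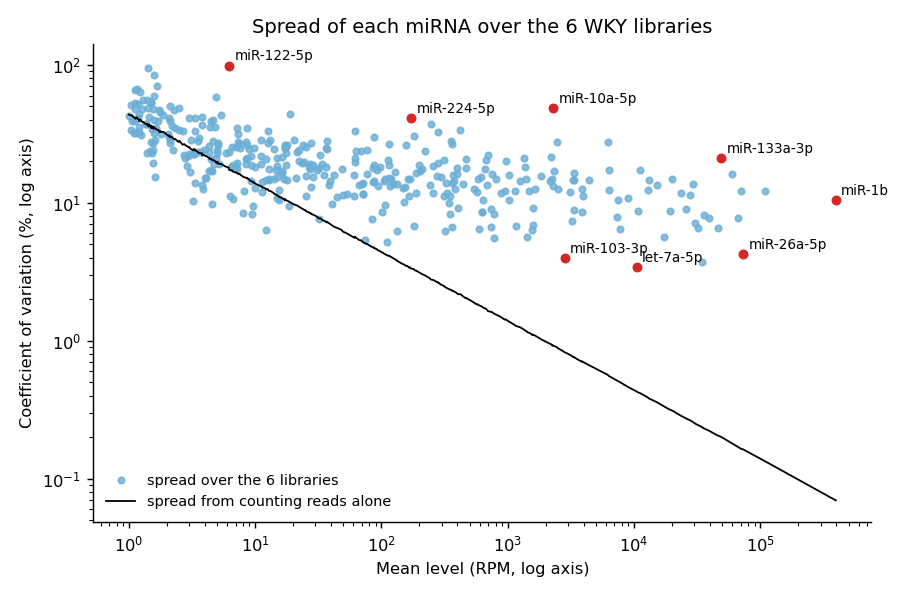
Coefficient of variation over the 6 WKY libraries (percent, log axis) against mean level (RPM, log axis), 1 point per miRNA of at least 1 RPM; the line is the spread from counting reads alone. miR-10a-5p lies highest among abundant miRNAs at 48.8%, and let-7a-5p lowest at 3.40%.

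WKY1 departed from the rest in the balance of muscle miRNAs. The ratio of miR-1b to miR-133a-3p was 15.4 in WKY1 and 6.21 to 7.98 in the other 5 libraries. The ratio of miR-1-3p to miR-133a-3p, whose hairpins are neighbours, was 2.76 in WKY1 and 1.20 to 1.44 in the others. The near-identical entries miR-133a-3p and miR-133b-3p kept their ratio, at 8.41 in WKY1 and 7.15 to 8.77 elsewhere, but their levels may not be independent either. The endothelial miR-126a-3p was also lowest in WKY1, at 85329 RPM against a median of 113827 RPM. WKY1 was lowest for 81 of the 149 miRNAs of at least 100 RPM, for 63 with miR-1b taken out of the total, and for 43 under TMM scaling. It was highest for 18 on the authors' scale and for 48 under TMM scaling, more than the number for which it was then lowest. WKY5 was highest for 61 on the authors' scale and for 13 under TMM scaling. Part of the place of both libraries thus moved with the scale, while the ratios between miRNAs do not depend on it.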

How the data were processed

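Small RNA from rat heart was sequenced from 1 µg of total RNA with a NEBNext small RNA kit, per the labels' protocols. FastQC, TopHat2 and limma appear in the submitters' processing notes, without versions or roles. The genome build, the miRNA annotation and the handling of reads matching several entries were not given in the sources used here. The deposited value of each mature miRNA is a normalized read count per the file headers and was treated as a signal. All 3594 of 3594 values lay within 0.01 of a whole multiple of a library-specific step, so reads were recovered from them. Read shares were not corrected for differences in adapter ligation between sequences.

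Shares, families and spread were computed with pandas 2.3.3 in Python 3.11.15. Arms were compared with limma 3.58.1 (R 4.3.3), as a two-sided fit of the log2 ratio against 0 over 6 libraries with a pseudocount of 1 RPM, trend and robust moderation, and adjustment over all 140 hairpins of at least 10 RPM. edgeR 4.0.16 (quasi-likelihood test, on recovered reads), other pseudocounts and filters, TMM scaling and leaving out each library were alternatives. On simulated data with 70 of 140 hairpins changed, the fit called 100% of changed and 3.29% of equal hairpins in 10 simulations. The changed hairpins had ratios of at least 2-fold, with a simulated SD of 0.2 between libraries on the log2 scale. They therefore do not show how well smaller ratios, such as those of miR-28 and miR-434, or hairpins with a larger spread are called. Named miRNAs were the 20 most abundant, the 10 largest seed families, the 5 hairpins leaning most each way, the 5 nearest to equal, the 8 largest and 5 smallest CVs from 100 RPM, and members of 11 cell type lists; others were named after their values were seen. The libraries, lists and rules were chosen with earlier results of these data known.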

Additional observations from a re-analysis of the deposited data

Results flagged for a closer look

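Of 74 groups of 6 values tested with Dixon's criterion, 8 had a highest or lowest library whose gap to the next was large for the range. Chance flags about 5% of groups. WKY1 was the outlying library for 5 of them: the share of miR-1b at 33.1% against a median of 26.7%, that of miR-1-3p at 5.93% against 4.83%, that of the miR-1b seed family at 39.1% against 31.5%, the share of the 10 most abundant miRNAs at 68.4% against 65.3%, and the effective number of miRNAs at 21.2 against 25.6. These 5 overlap, since miR-1b enters each of them except the share of miR-1-3p. WKY3 was the outlying library for miR-27b-3p, at 2.44% against a median of 2.08%, and for its seed family with miR-27a-3p, at 3.58% against 2.90%. WKY4 stood apart for the liver list, which is nearly all miR-122-5p, at 18.2 RPM against a median of 4.41 RPM. The causes were not tested.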

How the results depend on the processing

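No paired analysis was possible because no groups of samples were compared; the arm ratio is itself taken within each library. With no filter on level, 90 of 214 hairpins had a higher 3p arm. As a share of 1000000, miR-1b held 39.5% and the top 10 94.6%. The 10 largest families held 82.9% grouped by name and 82.7% with entries lacking a sequence joined by name, an alternative chosen after seeing the data. The 5p share of reads was 59.8% without miR-126a-3p and 38.7% with unnamed arms placed, also chosen after seeing the data. The median CV was 13.2% from 100 RPM, 26.1% with no filter and 13.0% with TMM scaling. Leaving out each library gave 77 to 78 hairpins with 5p higher and 58 to 60 with 3p higher, 26.4 to 27.9% for miR-1b, 65.2 to 65.9% for the top 10, 75.9 to 76.6% for the families, 53.1 to 54.0% for the 5p share and a median CV of 11.8 (without WKY1) to 15.7%. The uncalled log2 ratio of miR-301a lay between -0.11 (without WKY4, limma adjusted p = 0.314, a change of sign) and 0.11, and miR-362 was called without it (log2 -0.30, adjusted p = 0.0353). The fitted log2 ratio of miR-1 moved from -16.67 with a pseudocount of 0.5 RPM to -13.72 with 5 RPM. Depth limits miRNAs near 1 read in a library, which was worth 0.153 to 0.224 RPM.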

Other observations

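The large clusters of the rat genome gave few reads in this tissue. A group of 32 neighbouring hairpins led by miR-411-5p, at 19.9 RPM, summed to 112 ± 10.8 RPM over 50 listed entries (SD, n = 6). A group of 11 hairpins led by miR-127-3p summed to 178 ± 19.5 RPM, of which miR-127-3p had 147 RPM. A group of 9 hairpins led by miR-741-3p summed to 11.0 ± 6.25 RPM. miR-143 with miR-145, only 2 hairpins, summed to 64073 ± 10140 RPM. miR-182, miR-183 and miR-96, known from sensory cells, summed to 11.5 ± 0.830 RPM. The pair miR-132 and miR-212 summed to 21.0 ± 4.32 RPM, with miR-132 exceeding miR-212 by 4.34 ± 1.01-fold.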
